A study of Homo sapiens with 6 samples.

Results

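The 10 genes described here, of 27980 gene symbols in the count tables, were all higher in RKO cells depleted of TRIP6 than in their controls. They were LZTS1, INSC, WT1, HSD11B1, CA2, SLAIN1, ENPP4, MELTF, APBA2 and CHRNB1. RKO is a poorly differentiated human colon carcinoma cell line. A lentivirus had delivered a stable hairpin targeting TRIP6 to the cells of 3 libraries (shTRIP6, genotype TRIP6 knockdown) and a scrambled hairpin to those of the other 3 (shControl, which the labels give the genotype WT). Puromycin selection (5 µg/ml) began in both groups 36 h after infection and lasted 2 to 3 weeks. The labels call the replicates biological without saying that they came from separate cultures, so any test measures only the spread between these libraries. The sources used here do not give the number of hairpin sequences, or whether the cells were pools or clones, so TRIP6 loss and other effects of a hairpin or a line cannot be told apart. The genes were selected on their measured rise in this same comparison, so their differences between the groups are given as a description with no test.

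The 10 genes belong to unrelated parts of cell biology. WT1 encodes a zinc finger transcription factor of the developing kidney, gonad and mesothelium. HSD11B1 encodes the endoplasmic reticulum enzyme that regenerates active cortisol from cortisone, and CA2 a cytosolic carbonic anhydrase that hydrates carbon dioxide. LZTS1 is a leucine zipper tumour suppressor that binds microtubules and controls mitosis, SLAIN1 a microtubule plus-end protein, and INSC the mammalian Inscuteable, an adaptor that ties the PAR polarity complex to the machinery orienting the mitotic spindle. ENPP4 and MELTF are anchored at the cell surface, the first as a nucleotide hydrolase and the second, melanotransferrin, as an iron-binding relative of transferrin. APBA2 is an adaptor of the X11 (Mint) family that binds the amyloid precursor protein, and CHRNB1 is the beta subunit of the muscle-type acetylcholine receptor.

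The starts of these genes differ widely in CpG content, the feature that DNA methylation acts on, and 5 stretches upstream of annotated starts are shown for the contrast among genes that were higher together. They are from RefSeq (GRCh38.p14), written 5′ to 3′ on the strand of the gene, with each CpG in capitals. Bases that GENCODE places in an untranslated region were left out.
WT1, first start (chr11:32435631-32435789, minus strand): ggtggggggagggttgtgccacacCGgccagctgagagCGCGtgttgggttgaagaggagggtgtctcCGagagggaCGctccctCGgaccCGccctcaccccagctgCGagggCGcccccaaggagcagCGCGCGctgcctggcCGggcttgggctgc
INSC, first start (chr11:15112174-15112423, plus strand): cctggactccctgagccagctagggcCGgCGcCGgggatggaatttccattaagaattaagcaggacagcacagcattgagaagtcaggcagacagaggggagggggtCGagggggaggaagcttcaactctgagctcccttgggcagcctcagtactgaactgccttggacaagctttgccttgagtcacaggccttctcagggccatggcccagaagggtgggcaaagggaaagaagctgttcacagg
INSC, second start (chr11:15114673-15114922, plus strand): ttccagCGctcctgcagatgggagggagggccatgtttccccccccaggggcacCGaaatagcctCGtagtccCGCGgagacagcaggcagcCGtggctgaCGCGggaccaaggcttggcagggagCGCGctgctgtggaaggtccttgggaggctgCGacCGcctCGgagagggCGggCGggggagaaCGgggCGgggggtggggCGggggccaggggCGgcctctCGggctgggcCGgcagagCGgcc
HSD11B1 (chr1:209685929-209686177, plus strand): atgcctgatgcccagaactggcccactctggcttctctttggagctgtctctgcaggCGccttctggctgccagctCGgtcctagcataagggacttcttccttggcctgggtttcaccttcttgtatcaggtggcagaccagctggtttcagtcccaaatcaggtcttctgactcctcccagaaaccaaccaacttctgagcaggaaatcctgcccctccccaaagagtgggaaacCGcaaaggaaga
MELTF (chr3:197029818-197030067, minus strand): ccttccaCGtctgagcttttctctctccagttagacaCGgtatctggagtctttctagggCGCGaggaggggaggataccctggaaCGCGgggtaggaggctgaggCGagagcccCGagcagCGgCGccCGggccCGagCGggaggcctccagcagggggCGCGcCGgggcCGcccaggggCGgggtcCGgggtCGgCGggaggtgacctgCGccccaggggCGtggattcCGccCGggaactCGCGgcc
The WT1, second INSC and MELTF stretches are dense in CpG, with 13 in 159 bases, 22 in 250 bases and 27 in 250 bases. The first INSC stretch and that of HSD11B1 hold 4 in 250 and 3 in 249. Over full windows of 250 bases before each start, 18 windows of 7 of the genes were found in RefSeq's table, with LZTS1, CA2 and ENPP4 not matched. Windows were called CpG-rich at a G + C content of 50% or more and an observed over expected CpG ratio of 0.6 or more. By that measure 8 of the 18 windows were CpG-rich, beside 45.0% of all 35116 windows. They belonged to 5 of the 7 genes, beside 48.3% of all 27305 genes with any such window. The 7 genes had more windows per gene than all genes together, so the shares by gene are not like for like. HSD11B1 and CHRNB1 had none, with ratios of 0.16 and 0.441. The core letters of TEAD sites, CATTCC on either strand, occurred in 2 of the 18 windows, the single window of CHRNB1 and the last of WT1, beside 11.9% of all windows. The EGR and WT1 type motif GCGNGGGCG, also on either strand, occurred in 1 of the 18, the first window of WT1, beside 8.41% of all, so the motifs overlapped nowhere in these windows. These are matches of letters and say nothing of binding, and methylation was not measured.

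**Figure D1:**
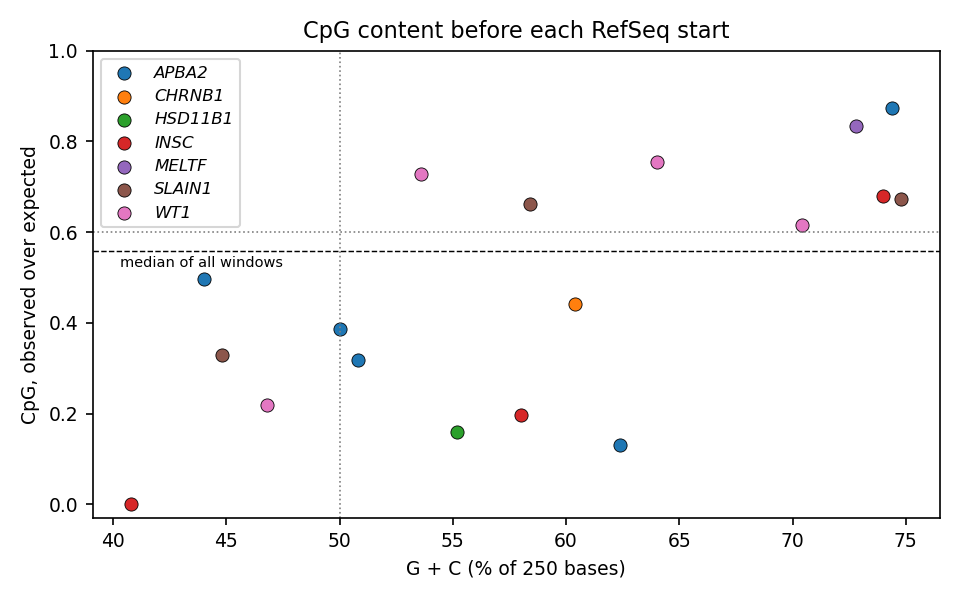
CpG content of the 250 bases before each RefSeq start of 7 of the genes, as observed over expected CpG (vertical axis) against G + C in percent (horizontal axis), 1 point per start and 1 colour per gene. Dotted lines mark the limits of 0.6 and 50%, and the dashed line the median ratio of all windows (0.558). The points of WT1, INSC, SLAIN1 and APBA2 lie on both sides of the ratio limit of 0.6, and those of HSD11B1 and CHRNB1 lie below it, at G + C contents of 55.2% and 60.4%.

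Library totals were 31096598 to 32089298 counts in shTRIP6 and 29605764 to 30949334 in shControl, so that 1 count was worth 0.0314 to 0.0336 CPM (counts scaled to the library total). Every pair of replicates differed beyond sampling noise, and shControl replicate 1 stood farther from the other controls (chi-square per degree of freedom 10.7 and 11.7) than these from each other (4.81). TRIP6, the targeted gene, stood at 19.8, 19.4 and 19.5 CPM in shTRIP6 and at 73.9, 86.5 and 80.6 CPM in shControl, which left 24.3% (log2 fold change -2.04 ± 0.07 SE, edgeR adjusted p = 1.25e-14). RKO was weak in markers of colonic epithelium in both groups: 8 of 16, among them EPCAM, VIL1, KRT20 and CDX1, had no count in any library, and CDX2 had 8 counts over all 6. Only 1 of the 16 passed the filter on low counts. The summed level of the colonic markers was 28.7 to 31.4 CPM in shTRIP6 and 17.4 to 22 CPM in shControl. Markers of fibroblasts (160 to 180 against 116 to 129 CPM, 2 of 9 tested higher and 5 lower), leukocytes (237 to 246 against 188 to 236 CPM, 2 of 3 higher) and endothelium (68.8 to 76.2 against 45.0 to 50.4 CPM, 1 of 2 higher and 1 lower) also summed higher in shTRIP6. The B cell and erythroid genes MS4A1 and HBB and the endothelial gene EMCN had no count in any library. PECAM1, also endothelial, had 51, 51 and 49 counts in shControl and 0 in every shTRIP6 library (edgeR adjusted p = 2.14e-07). CDH5 had 8, 13 and 4 counts in shControl against 0, 0 and 2, and the leukocyte gene PTPRC 1, 0 and 8 against 0 in each. The part of these markers in the results was not tested.

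All 10 genes passed the filter on low counts and in all 10 every shTRIP6 library lay above every shControl library. Over all 15473 genes tested, 29% were called higher in shTRIP6, 31.2% were called lower (edgeR, adjusted p under 0.05), and 31.8% had all shTRIP6 libraries above all controls. Since the genes were chosen on this comparison, nothing is read from their count. They fell into 2 kinds, with CA2 between them. LZTS1, INSC, WT1 and HSD11B1 reached 1 CPM or more in shTRIP6 with a shControl level of at most 5% of that, a pattern of 6 genes (0.0388% of those tested), whereas 441 genes showed its mirror image. The other 6 genes stood at 12.2% to 26.7% of their shTRIP6 level in shControl and were counted in every control library. By these counts the first 4 were close to absent in controls. The other 6 were raised from a level already present, though a low one for CA2 (0.865 CPM). Calling all 10 switched on thus goes against the data.

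LZTS1 had 140, 171 and 125 counts in the shTRIP6 libraries and 2, 0 and 0 in the shControl libraries. Its mean was 4.63 ± 0.752 against 0.0224 ± 0.0388 CPM (SD, n = 3 per group), a ratio of summed counts, scaled for depth, of 212 with a 95% exact binomial interval of 58.5 to 1760. Both control counts came from replicate 1, and without it the controls held no count, which makes LZTS1 at least 95.7-fold higher, taking 3 counts over the whole group as the floor. Without replicate 2 or 3 the ratio was 140 or 141. Intervals and floors reflect counting error alone, as reads with no molecular identifier need not be separate molecules. Its fitted fold change was 7.49 ± 0.51 on the log2 scale, a value that depends on the small count edgeR adds to a group near 0. Its partner on the other strand, LZTS1-AS1, had no count in any library.

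INSC had 83, 71 and 76 counts in shTRIP6 and 1, 0 and 1 in shControl. The means were 2.44 ± 0.167 and 0.0220 ± 0.0190 CPM (ratio of summed counts 112, interval 30.7 to 931). Without shControl replicate 2, the library with no INSC count, the ratio was 74.0. Of the 4 near-absent genes it was the most even across the shTRIP6 libraries, with a coefficient of variation of 6.85%, where counting alone gives 11.4%.

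WT1 had 58, 57 and 44 counts in shTRIP6 and 3, 1 and 0 in shControl. Its mean was 1.69 ± 0.235 against 0.0443 ± 0.0515 CPM (ratio 38.7, interval 14.8 to 144). Without shControl replicate 1, which held 3 of its 4 control counts, the ratio was 105 (interval 18.5 to 4162), and without replicate 3 it was 25.7. WT1-AS, the long noncoding RNA that starts divergently beside WT1 and shares 113 bases of exon with it, had no count in any library. Whether the counting used strand is not stated, so this does not give the strand of the reads counted as WT1.

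HSD11B1 had 52, 25 and 26 counts in shTRIP6 and 0, 2 and 1 in shControl. The means were 1.09 ± 0.47 and 0.0322 ± 0.0321 CPM (ratio 33.5, interval 11.1 to 165). It was the least even of the 10 genes in shTRIP6: replicate 1 stood at 1.63 CPM, above 0.799 and 0.836 CPM in the other two, a coefficient of variation of 43.2% where counting gives 17.1%. Without shControl replicate 1 the ratio was 22.6, and without replicate 2 it was 66.3 (intervals 7.52 to 111 and 11.6 to 2644). Summed over LZTS1, INSC, WT1 and HSD11B1, the shTRIP6 libraries held 333, 324 and 271 counts and the shControl libraries 6, 3 and 2. The few control counts were thus spread over all 3 control libraries, though no single gene of the 4 was counted in each.

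CA2 lay between the 2 kinds. It stood at 6.34, 7.51 and 7.36 CPM in shTRIP6 and at 0.471, 1.16 and 0.970 CPM in shControl, a control level of 12.2% of that in shTRIP6. The ratio of summed counts was 8.11 (interval 6.42 to 10.4). With 14, 36 and 30 counts in the controls it was low there but not absent, and lowest in replicate 1.

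Among the genes already expressed in controls, MELTF was the most abundant. It stood at 46.0, 48.6 and 44.7 CPM in shTRIP6 against 11.8, 11.7 and 11.3 CPM in shControl, with the narrowest control spread of the 10 genes (2.42% of its mean). The log2 fold change was 2.00 ± 0.08. MELTF-AS1, on the opposite strand, shares 296 bases of exon with it (3.53% of its exon length) and had 121, 113 and 101 counts in shTRIP6 and 26, 38 and 27 in shControl. Whether the counting used strand is not stated in those sources, so reads over the shared bases cannot be assigned to one of the pair.

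SLAIN1 stood at 25.6, 24.1 and 22.8 CPM in shTRIP6 against 4.71, 5.23 and 5.11 CPM in shControl (log2 fold change 2.27 ± 0.11). The groups were tight, and the lowest shTRIP6 library was 4.36 times the highest control. APBA2 stood at 28.0, 26.7 and 24.2 CPM in shTRIP6 against 8.07, 6.00 and 5.85 CPM in shControl (1.99 ± 0.12), with control replicate 1 above the other two.

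ENPP4 stood at 17.1, 16.1 and 21.8 CPM in shTRIP6 against 3.02, 4.24 and 4.46 CPM in shControl (2.23 ± 0.16). Replicate 3 was the highest shTRIP6 library and replicate 1 the lowest control. CHRNB1 stood at 15.4, 16.4 and 15.7 CPM in shTRIP6 against 3.02, 5.52 and 4.14 CPM in shControl (1.90 ± 0.16). Its controls varied by 29.6% of their mean where counting gives 8.77%, and its shTRIP6 libraries by 3.16% where counting gives 4.48%. Control replicate 1 was the lowest library for CA2, SLAIN1, ENPP4 and CHRNB1 and the highest for APBA2 and MELTF.

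**Figure D2:**
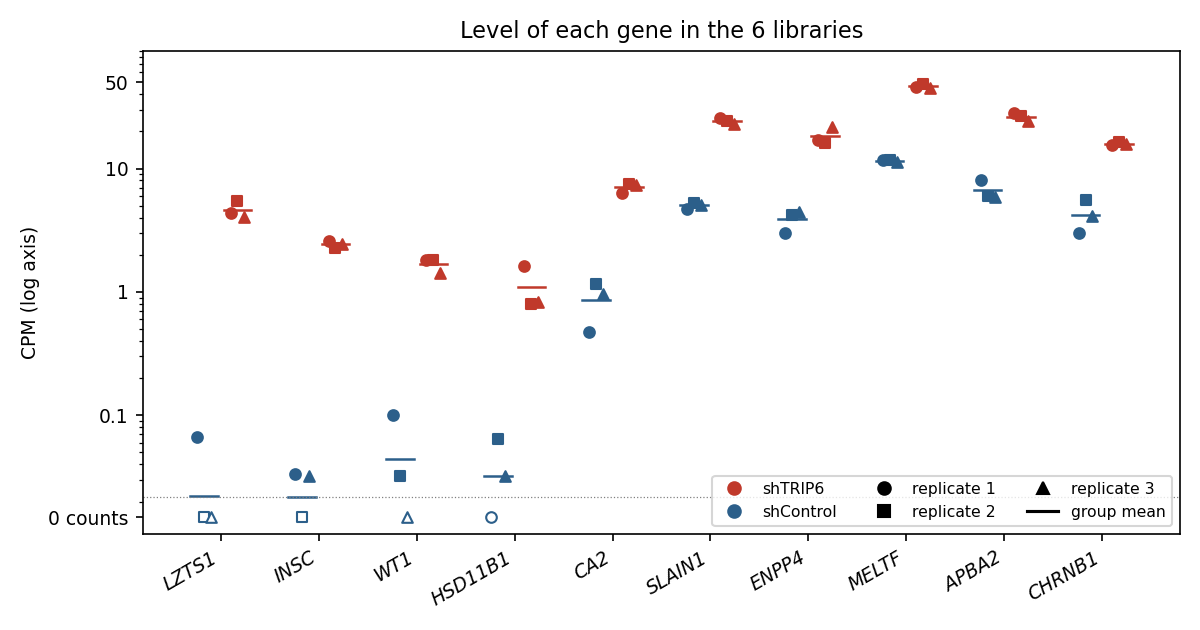
CPM of the 10 genes in each library on a log axis, with shTRIP6 in red, shControl in blue, 1 marker shape per replicate number and short bars for group means. Open symbols under the dotted line are libraries with 0 counts. LZTS1, INSC, WT1 and HSD11B1 have control values of 0.101 CPM or less, and the controls of SLAIN1, ENPP4, MELTF, APBA2 and CHRNB1 lie at 3.02 CPM or more.

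**Figure D3:**
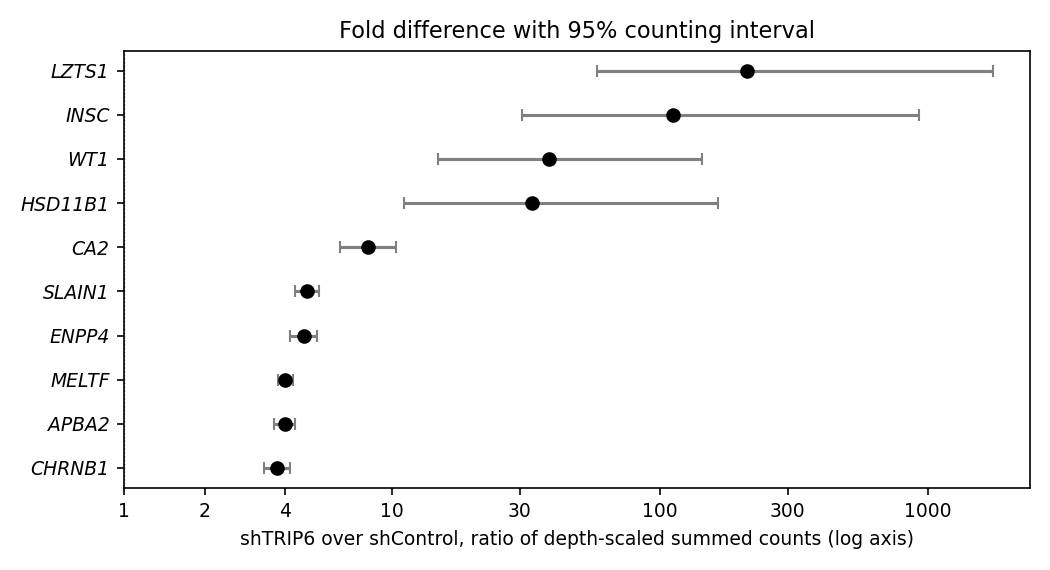
Ratio of depth-scaled summed counts, shTRIP6 over shControl, on a log axis for each of the 10 genes, with 95% exact binomial intervals that cover counting error only. The intervals are wide for LZTS1 to HSD11B1, which rest on 2 to 4 control counts, and narrow from SLAIN1 (4.36 to 5.34) to CHRNB1 (3.33 to 4.18).

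Per kilobase of exon (union of the GENCODE exons), which allows levels to be set side by side between genes, the mean shTRIP6 levels were 5.85 CPM for SLAIN1 and 5.53 for MELTF. Then came ENPP4 at 3.95, APBA2 at 3.83, CHRNB1 at 3.66 and CA2 at 3.33 CPM per kilobase. The 4 near-absent genes reached lower levels even in shTRIP6, at 0.811 for LZTS1, 0.72 for HSD11B1, 0.71 for INSC and 0.41 CPM per kilobase for WT1, all below the control level of MELTF (1.38). Among these 10 genes, the 4 with the largest ratios were also the 4 with the lowest shTRIP6 levels. The 4 were grouped at a limit of 1 CPM in shTRIP6. SLAIN1, ENPP4, MELTF, APBA2 and CHRNB1 all had a mean of 10 CPM or more over all libraries. As the genes were selected on this comparison, nothing is read from this relation.

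The values next to those of the 10 genes were close. By control level as a share of the shTRIP6 level, HOXA7 lay just inside 5%, at 4.65%, and B4GALNT4 was the first outside, at 5.44%. In the order of fitted fold changes at a mean of 10 CPM or more over all libraries, given as a description with no test, SLAIN1, ENPP4, MELTF, APBA2 and CHRNB1 stood at places 6, 7, 12, 13 and 14, and the next was SPEG, with a log2 fold change of 1.89 beside 1.90 for CHRNB1. The mean of CHRNB1 over all libraries, 10.04 CPM, lay just above the limit of 10 CPM.

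Of the 5 genes outside the 10 whose pattern was most like that of the near-absent genes, by the same share over the 6 libraries, HOXA7, B4GALNT4, TSPYL5 and GP1BB are given here. HOXA7, a homeobox transcription factor gene, had 40, 50 and 64 counts in shTRIP6 and 2, 3 and 2 in shControl. These values also come from the selecting comparison and are given with no test. B4GALNT4, a glycosyltransferase gene, stood at 5.62 ± 0.6 against 0.306 ± 0.153 CPM, TSPYL5 at 1.49 ± 0.386 against 0.0858 ± 0.098 CPM and GP1BB, a platelet glycoprotein gene, at 1.07 ± 0.224 against 0.0662 ± 0.0672 CPM.

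For each of the 10 genes a list of its relatives, partners or pathway was examined, none of them among the 10. Of 187 such genes tested, 72 were called higher and 64 lower (38.5% and 34.2%), beside the 29% and 31.2% over all genes, and their median log2 fold change was 0.10 beside -0.004 over all. In each list the largest called changes at a mean of 1 CPM or more are named, and the nearest paralogues and partners were added after their values were seen. Log2 fold changes are given with SE, and p-values are edgeR's, adjusted over all genes tested.

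The HSD11B1 list held genes that activate or answer to glucocorticoids, of which 6 of 20 tested rose and 11 fell (median log2 fold change -0.32). H6PD, which supplies the reducing power that HSD11B1 needs, had 235, 171 and 189 counts in shTRIP6 and 255, 396 and 373 in shControl, and fell by 0.82 (adjusted p = 0.000224). NR3C1, the glucocorticoid receptor gene, fell by 0.18 on the log2 scale, to 131 ± 3.68 from 148 ± 4.32 CPM. HSD11B2, which inactivates cortisol, had 0 to 11 counts per library and was not tested. Receptor targets went both ways. GLUL, glutamine synthetase, rose to 51.6 ± 2.81 from 11.1 ± 0.929 CPM and ANGPTL4 to 66.7 ± 1.28 from 45.0 ± 2.01 CPM, while the transcription factor gene KLF9 fell to 2.78 ± 0.893 from 15.7 ± 1.22 CPM and the CDK inhibitor gene CDKN1C to 3.52 ± 0.568 from 14.1 ± 1.65 CPM. FKBP5, a chaperone gene induced by glucocorticoids, rose by 0.54, and PER1, a clock gene also induced by them, fell by 0.51.

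Of the genes that WT1 binds, partners with or is known to regulate, 4 of 16 tested rose and 7 fell (median -0.08). BASP1, a corepressor of WT1, fell to 269.5 ± 3.31 from 507.6 ± 25.8 CPM (log2 fold change -0.91 ± 0.05, adjusted p = 2.77e-12). ERBB3, a receptor tyrosine kinase gene, rose to 10.5 ± 0.28 from 2.94 ± 0.706 CPM and ETS1 rose by 0.57. GAS1 fell to 0.0636 ± 0.064 from 17.3 ± 2.65 CPM and SIX2, a kidney progenitor factor, to 0.41 ± 0.424 from 8.26 ± 1.46 CPM. WT1 marks mesothelium and podocytes, and of 8 tested markers of these cells 1 rose and 6 fell. Their summed level was 643 to 653 CPM in shTRIP6 and 746 to 826 CPM in shControl, most of it PODXL. MSLN rose to 32.3 ± 1.25 from 23.7 ± 2.54 CPM, CALB2 fell to 0.169 ± 0.127 from 6.97 ± 1.1 CPM, and the podocyte gene NPHS1 had 20 counts in all 6 libraries.

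The INSC list, of PAR polarity and spindle orientation genes, had 8 of 21 tested members higher and 6 lower (median 0.04). Its direct partners moved apart: PARD3 rose to 78.5 ± 2.62 from 59.6 ± 1.33 CPM (adjusted p = 6.11e-06), and GPSM2, which links the complex to the spindle, fell to 41.1 ± 1.54 from 53.0 ± 1.84 CPM (adjusted p = 6.54e-05). PARD6G and the G protein gene GNAI2 rose by 0.58 and 0.53. LLGL2, a polarity gene of epithelia, fell to 0.265 ± 0.13 from 17.5 ± 1.11 CPM, and PRKCI, the atypical protein kinase C of the complex, fell to 57.5 ± 1.83 from 119 ± 9.06 CPM.

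For LZTS1 the list held its family and the CDK1 control genes, with 6 of 12 tested members higher and 3 lower (median 0.19). The paralogue LZTS2 stood at 55.5 ± 2.01 against 57.2 ± 1.70 CPM and did not pass (log2 fold change -0.04 ± 0.06, adjusted p = 0.561). N4BP3, a more distant relative, fell to 0.719 ± 0.303 from 1.75 ± 0.447 CPM and CCNB2, a mitotic cyclin gene, fell by 0.33. The CDK1 regulators CDC25A and PKMYT1, a phosphatase and a kinase of opposite effect, rose by 0.45 and 0.47, and CDK1 rose by 0.19.

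Of the microtubule plus-end genes listed for SLAIN1, 11 of 29 tested rose and 12 fell (median 0.04). The paralogue SLAIN2 stood at 77.0 ± 3.50 against 76.0 ± 9.33 CPM and did not pass (0.02 ± 0.07, adjusted p = 0.838). CKAP5, the microtubule polymerase that SLAIN proteins recruit, fell by 0.29. NAV1 and PSRC1 rose by 1.07 and 0.82, and the EB family gene MAPRE2 and the linker gene CLIP1 fell by 1.02 and 0.64.

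Of the carbonic anhydrase and bicarbonate transport genes, 6 of 15 tested rose and 7 fell (median 0.10). CA13, another cytosolic carbonic anhydrase and the nearest tested gene on the start side of CA2, rose to 6.24 ± 0.465 from 1.91 ± 0.174 CPM (1.71 ± 0.19, adjusted p = 2.97e-07). SLC4A4, a sodium bicarbonate cotransporter gene, rose to 10.3 ± 1.2 from 1.59 ± 0.13 CPM. CA12, a carbonic anhydrase of the cell surface, went the other way, to 0.572 ± 0.163 from 19.3 ± 1.42 CPM, and CA11, a catalytically inactive relative, fell by 1.91.

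The ENPP4 list, of ectonucleotidases and ATP receptors, had 10 of 16 tested members higher and 1 lower (median 0.49). ENPP1 rose to 13.7 ± 1.24 from 4.11 ± 0.312 CPM and NT5E, the ectoenzyme CD73 that makes adenosine, to 401 ± 1.81 from 171 ± 8.91 CPM. ENPP5, a paralogue of ENPP4, had 4, 4 and 5 counts in shTRIP6 and none in shControl and was not tested. PANX1, an ATP release channel gene, fell by 0.21 (adjusted p = 0.013), a call lost without shTRIP6 replicate 1 (0.12) or shControl replicate 3 (0.0547).

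Of the iron handling genes listed for MELTF, 6 of 17 tested rose and 7 fell (median -0.06). TFRC, the transferrin receptor gene, fell to 551.7 ± 11.4 from 732 ± 14.8 CPM, and TF itself was not tested for want of counts. The ferritin chains went apart, with FTH1 at 1826 ± 72.9 against 7406 ± 260 CPM (-2.02 ± 0.04) and FTL at 7850 ± 361 against 5524 ± 266 CPM (0.51 ± 0.04). FTH1 and FTL have many processed pseudogenes with which reads can be shared. The metalloreductase gene STEAP2 rose by 1.02, and TFR2, a transferrin receptor of liver, fell to 0.053 ± 0.018 from 2.58 ± 0.831 CPM.

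Of the X11 and amyloid precursor processing genes listed for APBA2, 10 of 26 tested rose and 7 fell (median 0.14). APBA1 stood at 1.04 ± 0.534 against 0.556 ± 0.046 CPM and APBA3 at 18.0 ± 2.55 against 15.1 ± 2.56 CPM, and neither passed (adjusted p = 0.087 and 0.0887). APP stood at 882 ± 13.1 against 909 ± 5.76 CPM (adjusted p = 0.333). APBB1, another adaptor of APP, and the kinesin gene KIF17 rose by 1.16 and 1.11, while ADAM10, an APP-cleaving protease, and CLSTN3 fell by 1.43 and 1.45.

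The acetylcholine receptor list had 5 of 15 tested members higher and 3 lower (median 0.56). The other subunits of the muscle-type receptor were at or near 0, with no count for CHRND, 2 counts in all for CHRNA1, and for CHRNG none in shTRIP6 and 6, 4 and 14 in shControl. CHRNE stood at 1.88 ± 0.282 against 2.47 ± 0.55 CPM and did not pass (adjusted p = 0.203). CHRNB1 was thus higher in cells with almost no CHRNA1 or CHRND RNA. CHRNA7, the subunit of a neuronal receptor, rose by 1.07 and BCHE, butyrylcholinesterase, by 1.34, while CHRNA5 and AGRN, which organises the synapse, fell by 0.43 and 0.90.

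**Figure D4:**
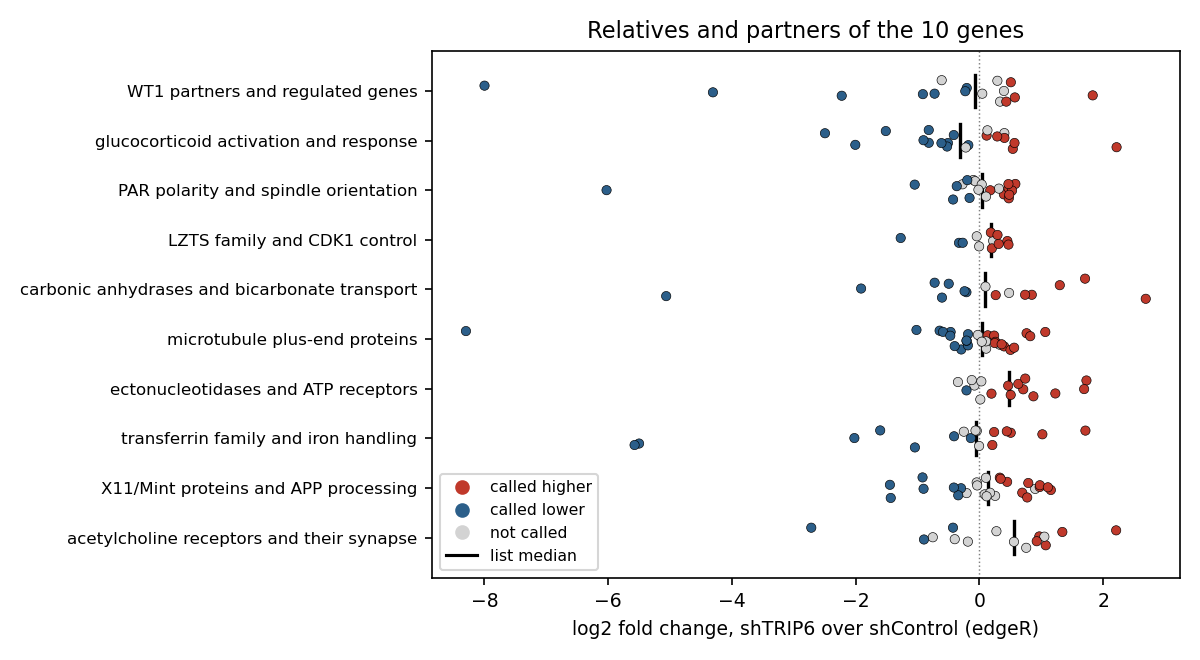
Log2 fold changes (edgeR, shTRIP6 over shControl, horizontal axis) of the tested genes in the 10 lists, 1 point per gene, red where called higher, blue where called lower and grey where not called, with a black bar at each list's median. Medians run from -0.32 for the glucocorticoid list to 0.56 for the acetylcholine receptor list, and each list holds genes called in both directions.

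The 10 genes lie on 8 chromosomes. In GENCODE 29 (GRCh38) all are protein-coding, with WT1 on chromosome 11 from 32387775 to 32435630 (minus strand) and INSC on the same chromosome from 15112424 to 15247208 (plus strand). HSD11B1 lies on chromosome 1 from 209686178 to 209734950, MELTF on chromosome 3 from 196988621 to 197029816 and ENPP4 on chromosome 6 from 46129993 to 46146699. SLAIN1 lies on chromosome 13 from 77697854 to 77764242, APBA2 on chromosome 15 from 28884483 to 29118315 and CHRNB1 on chromosome 17 from 7445061 to 7457707. LZTS1, from 20246165 to 20303963, and CA2, from 85463852 to 85481493, share chromosome 8.

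Of the 3 nearest tested protein-coding genes on each side of each gene, 60 in all, 25 were called higher and 12 lower (41.7% and 20%, beside 29% and 31.2% over all genes). The nearest on each side were higher in 11 of 20 and lower in 4. Genes that were not tested were passed over. The gap to the nearest tested gene thus ran from 0.124 kilobases (FGF11 from CHRNB1) to 1616 kilobases (XPO7 from LZTS1). None of the 60 had a log2 fold change as high as that of the gene it flanked. As the flanked genes were selected on their rise in this comparison, nothing is read from that. Around SLAIN1 and around APBA2 5 of 6 neighbours did not pass, and the next genes of APBA2, GOLGA8M and NSMCE3, stood at 0.17 (adjusted p = 0.792) and 0.18 (adjusted p = 0.0594), the second of which passed with upper-quartile scaling (0.0182) and without shControl replicate 2 (0.0411). Those of SLAIN1 were MYCBP2 at 0.04 (adjusted p = 0.5) and POU4F1 at 0.41 (0.0402), whose call was lost without shTRIP6 replicate 2 (0.222) or shControl replicate 2 (0.128), in DESeq2 (0.0509) and with the replicate number as a block (0.0542). GOLGA8M belongs to a family of near-identical copies, so its counts are uncertain.

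Other flanks moved with or against the gene between them. Around INSC 5 of 6 neighbours were higher. CYP2R1, a vitamin D hydroxylase gene 220 kilobases away, rose to 7.11 from 3.39 CPM, and C11orf58, 1366 kilobases away, rose by 0.28. Around HSD11B1 4 of 6 were higher, with G0S2, a lipase inhibitor gene 9.79 kilobases away, at 389 against 312 CPM (0.32 ± 0.04) and TRAF3IP3 at 0.01 (adjusted p = 0.981). RCN1 and EIF3M, which flank WT1, rose by 0.33 and 0.42.

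The nearest tested genes to LZTS1 were ATP6V1B2, 19.3 kilobases away, which rose by 0.36, and XPO7, 1616 kilobases away, which fell by 0.37. The second tested gene on the ATP6V1B2 side was LPL, lipoprotein lipase, 279 kilobases from LZTS1. LPL stood at 0.0641 against 16.5 CPM, so that LZTS1 was near-absent in the group where LPL was expressed and LPL in the other. The nearest tested genes to ENPP4 were RUNX2, 466 kilobases away, which rose by 0.48, and SLC25A27, 506 kilobases away, which fell by 2.19. Of the genes next to CHRNB1, FGF11 rose by 0.76 and ZBTB4 fell by 0.28, and of those next to MELTF, DLG1 rose by 0.48 and PIGZ stood at 0.04 (adjusted p = 0.932). On the far side of CA2 from CA13, ATP6V0D2 fell by 1.21 (adjusted p = 0.0152), a call lost without shTRIP6 replicate 1 (0.086) or shControl replicate 2 (0.053).

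**Figure D5:**
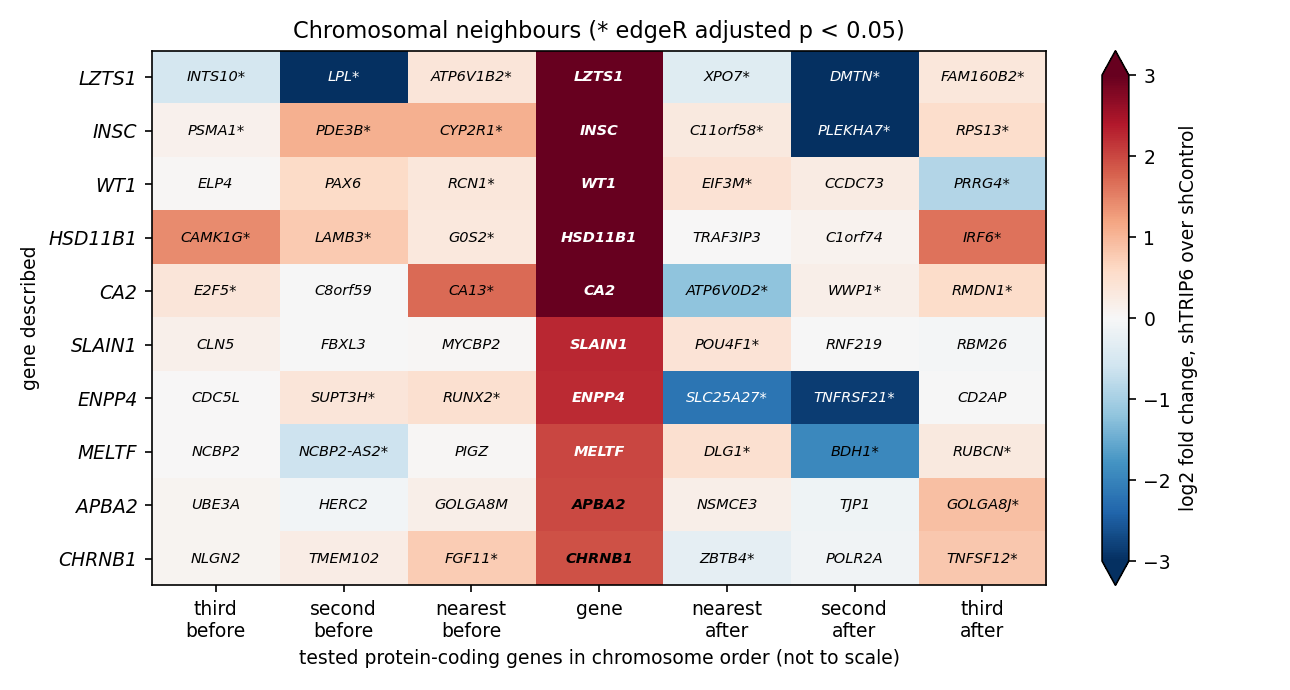
Log2 fold changes (edgeR, shTRIP6 over shControl, colour scale limited to 3 in each direction) of the 10 genes, in the middle column, and of the 3 nearest tested protein-coding genes on each side in chromosome order, not to scale. Asterisks mark neighbours with an adjusted p under 0.05, and names are printed in each cell. The middle column is the darkest red of its row in each case, as its genes were selected on their rise in this comparison. LPL, DMTN, PLEKHA7, SLC25A27 and TNFRSF21 are among the neighbours in dark blue.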

How the data were processed

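RNA-seq of 6 RKO libraries was used, 3 shTRIP6 and 3 shControl, grouped by their titles. The deposited values were raw counts per gene symbol, whole numbers with no normalization by the authors. TopHat2, edgeR, limma and the build hg38 are named, per the submitters' processing notes, with neither roles nor versions. How the reads were counted, and whether by strand, is not stated in those notes or the labels. The 10 genes, the lists and the rules for naming genes were chosen with earlier results of these data known.

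Counts were fitted in R 4.3.3 with edgeR 4.0.16 (filterByExpr, then TMM scaling, and a quasi-likelihood test on group alone), and p-values were Benjamini-Hochberg adjusted over all 15473 genes tested. CPM used TMM-scaled totals of the tested genes. SE is the size of the log2 fold change over the square root of F. Count ratios carry 95% exact binomial intervals (scipy 1.17.1), with a floor of 3 counts. Named genes were the 10 genes and TRIP6, up to 2 rises and 2 falls per list at a mean of 1 CPM or more, the nearest neighbours, and the 5 most alike genes, of which 1 is not reported here. Of the symbols, 25770 were found in GENCODE 29. The test was checked on simulated counts. The alternatives were scaling by RLE, by upper quartile or not at all, no filter, 1 CPM in 3 libraries, DESeq2 1.42.0, limma-voom (limma 3.58.1), a replicate block and leaving out each library.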

Additional observations from a re-analysis of the deposited data

How the results depend on the processing

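All 10 genes kept a positive log2 fold change under each alternative in which they could be fitted (HSD11B1 was not tested with a filter of 1 CPM in 3 libraries), and 129 of 139 such values moved by less than the spread between replicates. The other 10 were all of the 4 genes near absent in controls: leaving out shControl replicate 1 moved LZTS1 from 7.49 to 10.2 and WT1 from 5.15 to 6.39, fitted values that rest on 0 and 1 control counts. The other 6 genes, CA2 among them, ranged from 1.71 (CHRNB1 without shControl replicate 1) to 3.28 (CA2 without shControl replicate 2). Genes called higher numbered 4018 to 5073 over the alternatives and genes called lower 4368 to 5049. Calls among the listed genes ranged from 65 to 80 higher and 58 to 69 lower, and among the neighbours from 21 to 28 higher and 10 to 12 lower. With the replicate number as a block, 4377 genes were called higher and 4702 lower. Same-numbered libraries showed no shared deviation (r = -0.0234, -0.0448 and -0.0258). Such values cannot show that the libraries were unpaired, and the labels give no pairing. The scaling that moved the median of all genes most was upper-quartile scaling, from -0.004 to 0.0438 on the log2 scale. Depth limits the 4 near-absent genes: 2 to 4 control counts leave their ratios with wide intervals.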
